A study of Mus musculus with 31 samples.

Results

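The 35 genes described here encode proteins of mitosis and of DNA replication. They were chosen by name from the 31172 gene symbols measured in mouse liver. Earlier results of these data were known when they and the further gene lists used below were chosen. Their p-values may therefore not be independent of that choice. One of them, *Dlgap5*, was selected on its own values, since it was listed earlier for its higher level in mice given *Upf3b*-GalNAc-ASO at 10 mg/kg than in mice given Control-GalNAc-ASO at 15 mg/kg. The others are textbook proliferation genes, set beside it to see whether it moves with them, together with *Haus4* and *Tipin*, for which it is not known whether values at 20 mg/kg entered the choice, so that their p-values at that dose may not be independent of it. By role, 7 genes belong to the spindle, 9 are mitotic kinases, checkpoint kinases and cyclins, 6 belong to chromosomes and kinetochores, 2 are G1 cyclins and 11 serve DNA replication.

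Livers came from 31 *hFIX-R29X* mice, a hemophilia model without the mouse *F9* gene. They express human *FIX* from a minigene that carries the R29X nonsense codon under a transthyretin promoter, which is active mainly in hepatocytes. All mice were 8 to 14 weeks old, received 6 subcutaneous doses 5 days apart (the dose label reads weekly) and were killed 48 h after the last dose. DPBS, the vehicle, went to 11 mice (6 female, 5 male). Control-GalNAc-ASO, the control oligonucleotide, went to 4 mice at 15 mg/kg (2 of each sex) and to 6 mice at 20 mg/kg (3 of each sex). *Upf3b*-GalNAc-ASO went to 5 mice at 10 mg/kg and to 5 mice at 20 mg/kg, with 2 females and 3 males at each dose. An ASO is an antisense oligonucleotide, and the GalNAc sugar attached to it directs it to the asialoglycoprotein receptor of hepatocytes. UPF3B is a factor of nonsense-mediated mRNA decay (NMD), which degrades transcripts with premature stop codons.

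A cell that divides first licenses its replication origins with the MCM helicase, copies its DNA with nucleotides made by ribonucleotide reductase and thymidylate synthase, and then separates its chromosomes on a spindle built by kinesins, Aurora kinases and microtubule-associated proteins. Most hepatocytes of an adult mouse are quiescent, so these genes are known to be low in undisturbed liver and to come on after partial hepatectomy. Many of them share promoter elements bound by the DREAM complex and E2F factors.

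Promoter windows from RefSeq (GRCm38.p6, 250 bases before to 50 after the start) were found for 27 of the 35 genes, in 29 entries, and not for 8, *Dlgap5* and *Ccnd1* among them. The motifs searched, on both strands, were TTTGAA (the cell cycle homology region, CHR), CCAAT (the NF-Y element) and TTCCCGC (an E2F site). CCAAT stood in 25 of the 29 windows (86.2%) against 37.4% of all 32851 promoter windows, and CHR in 13 (44.8%) against 17.9%. The E2F motif stood in 5 (17.2%) against 4.60%. None of the motifs was found in 4 windows (13.8%) against 49.0% of all, and 0 windows held all 3. The promoters of *Cdk1*, the kinase that drives entry into mitosis, and of *Top2a*, topoisomerase II, are shown because they hold CHR with CCAAT, and that of *Haus4*, a subunit of the augmin complex that branches spindle microtubules, because it holds the E2F motif. Each line gives the 250 bases before the start, 5′ to 3′, with the 3 motifs in capitals.
Cdk1 (chr10:69352913-69353162, minus strand): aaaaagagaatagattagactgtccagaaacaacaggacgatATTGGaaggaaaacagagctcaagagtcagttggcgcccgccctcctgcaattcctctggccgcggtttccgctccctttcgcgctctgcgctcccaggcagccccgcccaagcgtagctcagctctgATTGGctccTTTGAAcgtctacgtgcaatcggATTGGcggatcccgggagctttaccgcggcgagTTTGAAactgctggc
Top2a (chr11:99024190-99024439, minus strand): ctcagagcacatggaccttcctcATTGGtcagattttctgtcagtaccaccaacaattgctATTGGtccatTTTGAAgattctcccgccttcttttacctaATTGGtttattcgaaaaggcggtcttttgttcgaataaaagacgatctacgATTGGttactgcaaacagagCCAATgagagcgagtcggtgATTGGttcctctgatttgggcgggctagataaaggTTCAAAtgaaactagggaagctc
Haus4 (chr14:54554362-54554611, minus strand): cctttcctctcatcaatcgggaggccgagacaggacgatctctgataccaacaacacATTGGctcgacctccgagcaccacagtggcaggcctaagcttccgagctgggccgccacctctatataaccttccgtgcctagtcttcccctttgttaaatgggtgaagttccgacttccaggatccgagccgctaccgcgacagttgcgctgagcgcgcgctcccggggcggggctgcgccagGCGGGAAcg
*Cdk1* held CHR 2 times and CCAAT 3 times, *Top2a* held CHR 2 times and CCAAT 6 times, and *Haus4* held the E2F motif and CCAAT. A match of letters is a description only.

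The labels name a kit that reads the 3′ ends of transcripts, whereas the study's methods name a TruSeq protocol on fragmented RNA. Each value is a TPM. Most values of a library were whole multiples of a single step (between 69.9% and 81.5%, within 0.02 of a read), so the step was taken as 1 read, worth the same in every gene, with no division by length. Counted this way, libraries held between 1012520 and 7334080 reads assigned to genes, fewer than the sequencing depth the study's methods state, and 3 reads, taken as the floor of a reliable value, were between 0.406 and 2.94 TPM. Reads and floors cover counting error only. *Upf3b* mRNA was between 2.57 and 16.7 TPM in mice given its ASO at 20 mg/kg, below every control mouse (27.1 to 136 TPM), and between 3.95 and 53.7 TPM at 10 mg/kg. Replicate 3 of the *Upf3b* 10 mg/kg group had the fewest reads and the lowest median correlation with its group (0.677, against up to 0.897 elsewhere). The hepatocyte markers summed to between 14228 and 36209 TPM, whereas those of lymphocytes and other leukocytes were between 0 and 41.1 TPM.

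Levels of the 35 genes ran from a few reads over all mice to a median of 120 TPM. In most mice 25 of them had 3 reads or more. In all, 11 of the 35 had a median of at least 5 TPM over all mice, 18 were lower but above 0, and 6 had a median of 0 (*Kif20a*, *Tpx2*, *Ccnb2*, *Aurkb*, *Bub1* and *Bub1b*). In 29 genes at least 1 mouse was at 0. At least 3 reads were found in every mouse for 4 genes, *Ccnd1*, *Tyms*, *Dlgap5* and *Cenpf*, and in no mouse for *Bub1*, the spindle checkpoint kinase, which had at most 2 reads. *Mki67*, the Ki-67 antigen used as a proliferation marker, had a median of 0.812 TPM and was at 0 in 11 mice. The most abundant were *Ccnd1* (median 120 TPM), *Tyms* (57.4 TPM), *Dlgap5* (30.9 TPM) and *Cenpf* (25.5 TPM), so *Dlgap5* was the most abundant of the mitotic genes.

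The spindle genes other than *Dlgap5* and *Haus4* were sparse. *Kif11*, the kinesin that separates the spindle poles, had at most 5.05 TPM and was at 0 in 15 mice. *Nusap1*, which bundles spindle microtubules, and *Tpx2*, which activates Aurora A, reached 8.82 and 4.36 TPM and were at 0 in 15 and 17 mice. *Kif20a*, a kinesin of cytokinesis, was seen in 1 mouse with 3 reads. *Prc1*, the crosslinker of the midzone, was the least sparse, with a median of 2.04 TPM and a highest value of 18.6 TPM.

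Among the kinases and mitotic cyclins, *Ccnb1* (cyclin B1) had the highest median, 3.81 TPM, followed by *Plk1* (Polo-like kinase) at 2.35 TPM, *Aurka* (Aurora A) at 1.93 TPM and *Cdk1* at 1.24 TPM. Of its 31-base sequence words *Ccnb1* shares 46.7% with other genes, most with *Ccnb1-ps*, and *Plk1* 17.7%, most with *Plk-ps1*. For *Aurka* and *Cdk1* the share was 0.31% and 0.01%. How reads were divided between these genes and others was not tested. *Ccna2*, cyclin A2, had at most 2.95 TPM, on 8 reads, and at most 9 reads in any mouse. *Ccnb2* (cyclin B2), *Aurkb* (Aurora B) and *Bub1b* (the checkpoint protein BUBR1) were at 0 in 25, 24 and 24 mice. *Cenpe*, the kinetochore kinesin, was at 0 in 13 mice and reached 9.64 TPM. Of the replication genes, *Mcm2* to *Mcm7*, which form the replicative helicase, had medians from 1.18 to 7.87 TPM and were at 0 in 1 to 5 mice, while *Rrm2* was at 0 in 10.

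**Figure D1:**
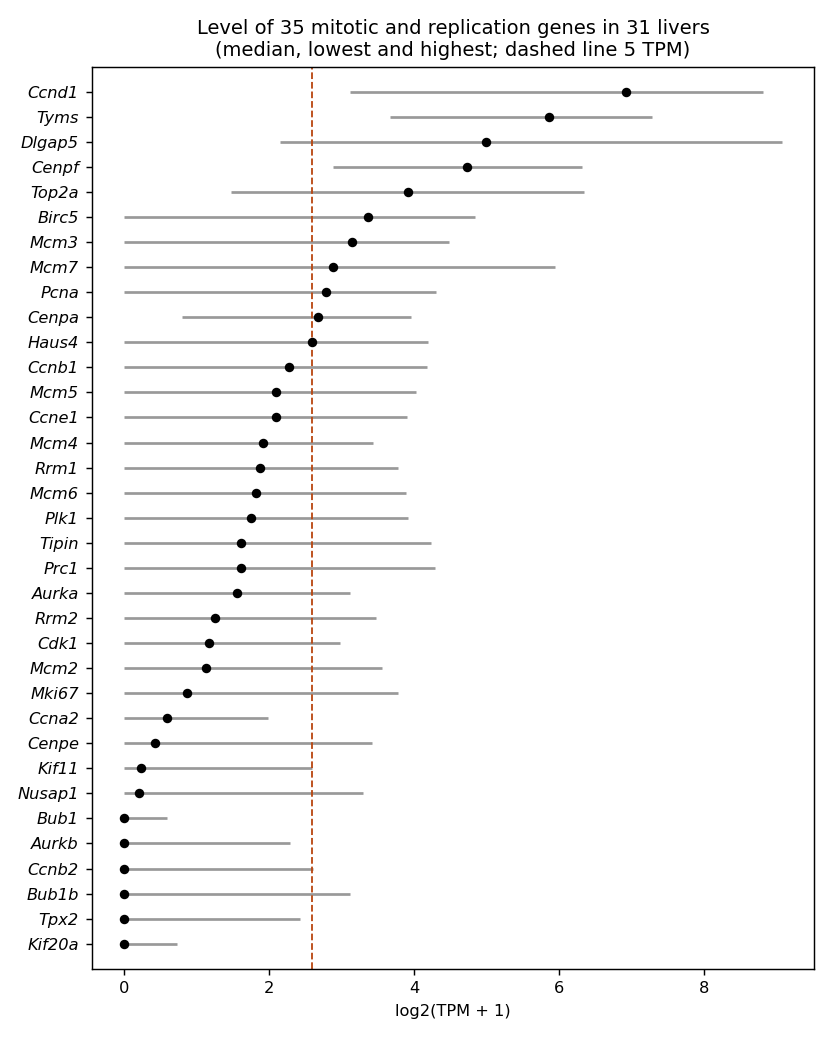
Level of each of the 35 genes over 31 livers on a log2(TPM + 1) axis, with the median as a point and a line from the lowest to the highest mouse; the dashed line is 5 TPM. Of the genes, 11 have their median at or right of the line and 6 have a median of 0.

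*Ccnd1* was the member called in tested comparisons between groups and between sexes. It encodes cyclin D1, which activates CDK4 and CDK6 in G1, and lies on chromosome 7 (GRCm38, 144929931 to 144939925, minus strand, 5 exons in its longest coding transcript). In DPBS-treated females it was between 141 and 449 TPM (median 242 TPM) and in DPBS-treated males 120, 107, 72.1, 82.1 and 81.3 TPM. The sexes did not overlap, which was so, with the lower values in males, for 1.19% of the 8998 genes compared. The log2 fold change of males against females was -1.45 (SE 0.28, limma, Benjamini-Hochberg adjusted p = 0.00801). An adjusted p under 0.05 was reached by 127 of these genes (1.41%), and by *Ccnd1* as the only one of 9 members that passed the filter on low values (in 1 or more of the groups compared, a median no lower than 5 TPM). With each DPBS mouse left out in turn, its adjusted p stayed at or below 0.0331 in 11 of 11 fits.

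At 20 mg/kg *Ccnd1* was lower after *Upf3b*-GalNAc-ASO than after Control-GalNAc-ASO. Females given Control-GalNAc-ASO had 297, 157 and 267 TPM and males 127, 118 and 140 TPM. Females given *Upf3b*-GalNAc-ASO had 144 and 121 TPM and males 7.68, 51.1 and 44.4 TPM. Within each sex every *Upf3b*-GalNAc-ASO mouse lay below every control mouse, as did 3.43% of the 9376 genes compared, while the groups overlapped when both sexes were pooled. The log2 fold change was -1.60 (SE 0.41, limma with sex as covariate, adjusted p = 0.0473). This call was close to the threshold: leaving out single mice, it held in 3 of 11 fits and its adjusted p reached 0.132, without Control-GalNAc-ASO replicate 3. The lowest mouse, *Upf3b* 20 mg/kg replicate 2 at 7.68 TPM, rested on 40 reads, and without it the log2 fold change was -1.11.

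Against DPBS the fall at 20 mg/kg was -1.38 on the log2 scale (SE 0.34, adjusted p = 0.0488 from limma), and the call held in 3 of 16 fits with a mouse left out. Without the same replicate 2 the value was -0.92 (adjusted p = 0.0915). Control-GalNAc-ASO at 20 mg/kg differed from DPBS by 0.18 (SE 0.23, adjusted p = 0.799), with an interval of the difference from -0.29 to 0.65. The effect of treatment at 20 mg/kg differed between males and females by -1.43 (SE 0.78), which did not pass the adjusted threshold (adjusted p = 0.999 from limma).

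The lower doses are given as a description, because *Dlgap5* was listed from that contrast. There *Ccnd1* was 72.4 and 82.3 TPM in females and 52.7, 47.5 and 55.4 TPM in males given *Upf3b*-GalNAc-ASO at 10 mg/kg. Mice given Control-GalNAc-ASO at 15 mg/kg had 311 and 408 TPM in females and 70.1 and 59.5 TPM in males. The groups overlapped when both sexes were pooled, and the log2 fold change was -1.17 (SE 0.38). Reads of *Ccnd1* were whole in every mouse. Of its 31-base words, 17.7% also occur in transcripts of the neighbouring gene annotated as LTO1, and how reads were divided between them was not tested.

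**Figure D2:**
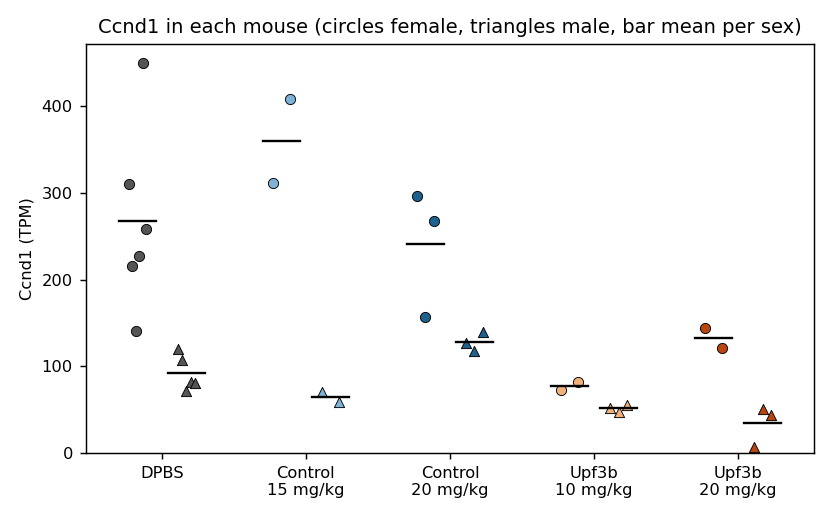
*Ccnd1* in TPM for each of 31 mice by group, with females as circles, males as triangles and bars at the mean of each sex. Males given DPBS lie below all DPBS females, and mice given *Upf3b*-GalNAc-ASO at 20 mg/kg lie below the Control-GalNAc-ASO mice of their own sex at 20 mg/kg.

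Markers of other liver cells were measured beside this fall. The 6 endothelial markers summed to between 1563 and 2223 TPM after *Upf3b*-GalNAc-ASO at 20 mg/kg and between 607 and 1647 TPM after Control-GalNAc-ASO at 20 mg/kg. Over single genes 2 of the 6 were higher and 4 lower (median log2 fold change -0.07), and 1, *Pecam1*, an adhesion molecule, was called (log2 fold change 1.27, SE 0.28, adjusted p = 0.0201 from limma). Of the 7 hepatocyte markers 0 were called, against 2 with an unadjusted p under 0.05, with a median log2 fold change of -0.22 against -0.12 over all genes tested. Among these markers 1 was higher and 6 lower, and against DPBS 0 were higher and 7 lower. Of all 9376 genes 2.52% were called, and 1751 had an unadjusted p under 0.05 (limma). In bulk liver fewer cells of a type and less RNA per cell cannot be told apart, and the part of cell composition in the *Ccnd1* values was not tested.

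*Ccne1*, the other G1 cyclin, which activates CDK2, was low, with a median of 3.26 TPM. It differed by -0.38 at 20 mg/kg (SE 0.64, interval from -1.71 to 0.95, adjusted p = 0.786 from limma). Among 17 further inhibitors and G1 regulators, 11 passed the filter and 1 was called (2.52% over all genes), *Ccng1*, cyclin G1, a p53 target. *Ccng1* was between 17.7 and 40.5 TPM in mice given *Upf3b*-GalNAc-ASO at 20 mg/kg (median 35.5 TPM) and between 5.11 and 19.1 TPM in mice given Control-GalNAc-ASO at 20 mg/kg (median 10.5 TPM), a rise of 1.59 (SE 0.42, adjusted p = 0.0477 from limma). It also rose against DPBS (log2 fold change 1.68, SE 0.40, adjusted p = 0.0327), and both groups at 20 mg/kg overlapped in range.

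*Dlgap5* encodes HURP, which stabilises kinetochore fibres of the mitotic spindle. The gene lies on chromosome 14 (GRCm38, 47387779 to 47418407, minus strand), with 9 annotated transcripts, of which 1 is annotated as a substrate of nonsense-mediated decay. In DPBS-treated mice it was between 3.42 and 138 TPM (median 45.0 TPM), a spread that held every value of the other groups but 1. Mice given Control-GalNAc-ASO at 20 mg/kg had between 8.66 and 34.6 TPM (median 11.4 TPM). Those given *Upf3b*-GalNAc-ASO at 20 mg/kg had 95.4, 49.5, 5.20, 40.3 and 24.9 TPM. The groups overlapped, replicate 4 of the *Upf3b* group being the lowest of both.

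At 20 mg/kg the log2 fold change of *Dlgap5* was 1.20 (SE 0.57, interval from 0.01 to 2.38, adjusted p = 0.264 from limma). Without *Upf3b* replicate 4 it was 1.78 (adjusted p = 0.0371), and without replicate 1 it was 0.69 (adjusted p = 0.607). Against DPBS, mice given Control-GalNAc-ASO at 20 mg/kg differed by -1.50 (SE 0.51, adjusted p = 0.412) and mice given *Upf3b*-GalNAc-ASO at 20 mg/kg by -0.34 (SE 0.70, adjusted p = 0.893), which turned to 0.28 without *Upf3b* replicate 4. Males given DPBS differed from females by 1.15 (SE 0.68, adjusted p = 0.59 from limma).

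In the contrast for which it was listed, *Dlgap5* was 67.0, 61.5, 539, 24.0 and 72.7 TPM at 10 mg/kg of *Upf3b*-GalNAc-ASO and 16.5, 6.56, 6.89 and 17.2 TPM at 15 mg/kg of Control-GalNAc-ASO. The log2 fold change of 3.01 (SE 0.54) is a description. It was 2.40 without replicate 3, the library with the fewest reads. Set against DPBS, the *Upf3b* 10 mg/kg mice differed by 1.11 (SE 0.72) and by 0.23 without replicate 3, while the Control-GalNAc-ASO 15 mg/kg mice differed by -1.73 (SE 0.66).

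The reads behind *Dlgap5* were seldom whole. Its value was a whole number of reads in 3.23% of mice, against 100% for *Ccnd1*, *Mki67*, *Cdk1*, *Haus4* and *Tipin*. The quantification tool can divide a read between transcripts of different genes, and whether that gave these fractions was not tested. In 10 of the 35 genes under 50% of the values were whole: *Kif11*, *Cenpf* and *Tyms* (0%), *Dlgap5*, *Top2a* (6.45%), *Cenpa* (9.68%), *Ccnb1* (10.3%), *Birc5* (24.1%), *Ccne1* (33.3%) and *Mcm5* (41.4%). Of the 8348 genes whose median reached 5 TPM and that have a GENCODE M21 transcript, 29.3% were of this kind. *Dlgap5* shares 2.12% of its 31-base words with other genes (5.68% over the last 500 bases), and these words occur in 1733 of them. For *Tyms*, thymidylate synthase, the share was 18.5% (419 genes, most with the pseudogene *Tyms-ps*), and for *Haus4* it was 0%. The share did not separate the kinds of member: its median was 3.14% in the 10 with under 50% whole values and 3.15% in the other 25, and *Mcm7*, at 49.6% shared, had 96.7% whole values. Over all 8348 genes the medians were 5.24% and 0.863%.

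The mice with the most *Dlgap5* were in some groups those with the most mitotic RNA and in others not. The 14 mitotic members with at least 50% whole values (*Mki67*, *Cdk1*, *Plk1* and others) summed to between 0 and 22.8 TPM in DPBS-treated mice, which rest on 0 to 143 reads. DPBS replicate 3 had the most *Dlgap5* of its group, 138 TPM, with a sum of 14.9 TPM. Replicate 4 had the highest sum, 22.8 TPM, with 24.3 TPM of *Dlgap5*. The lowest mouse in both was replicate 6, with 3.42 TPM of *Dlgap5*, resting on 4.1 reads, and a sum of 0. After Control-GalNAc-ASO at 20 mg/kg, replicate 3 was the highest in both, with 34.6 TPM of *Dlgap5* and a sum of 32.9 TPM.

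Females given *Upf3b*-GalNAc-ASO at 20 mg/kg had sums of 45.0 and 52.6 TPM, and males 9.79, 8.75 and 7.81 TPM. Sums after Control-GalNAc-ASO at 20 mg/kg were between 5.63 and 32.9 TPM. The *Upf3b* 20 mg/kg females lay above every control mouse of either sex at that dose, and the males lay within the range of the control males. The groups therefore overlapped through the males alone, and a difference between the sexes in these sums was not tested. The *Upf3b* 20 mg/kg female with the higher sum had 24.9 TPM of *Dlgap5* and the male with 9.79 TPM had 49.5 TPM. The female with 45.0 TPM had the most *Dlgap5* of the group, 95.4 TPM, and the male with 8.75 TPM the least, 5.20 TPM. The 6 mitotic members with under 50% whole values summed to between 33.4 and 79.9 TPM in DPBS mice, and to 175 TPM in *Upf3b* 10 mg/kg replicate 3, the mouse with 539 TPM of *Dlgap5*. That mouse also had the highest sum of its group over the other 14, 47.0 TPM on 48 reads, with 12.7 TPM of *Mki67* on 13 reads.

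**Figure D3:**
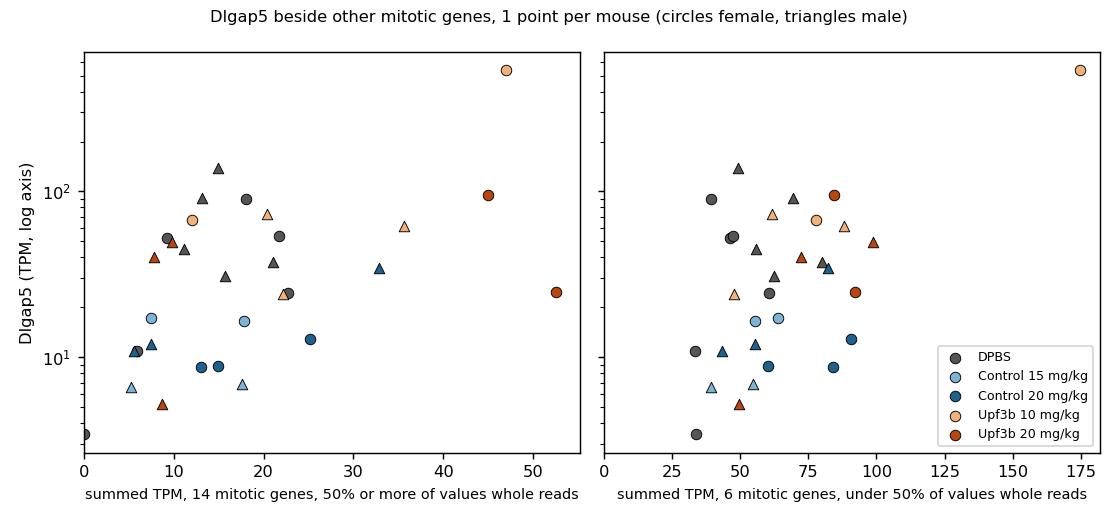
*Dlgap5* in TPM (log axis) against the summed TPM of 14 mitotic genes with at least 50% whole values (left) and of 6 with under 50% (right), 1 point per mouse, coloured by group, females as circles and males as triangles. DPBS mice with like sums on the left, such as 14.9 and 15.7 TPM, differ from 138 to 30.9 TPM in *Dlgap5*, and the mouse at the top, with 539 TPM, lies farthest right in the right panel at 175 TPM.

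Likeness to *Dlgap5* was then measured over all 31 mice after group and sex were taken out, as a rank correlation across 9839 genes, given as a description. The points share libraries and their depth. The 17 members compared had a median Spearman's rho of 0.09 against -0.01 over all genes, and 12 of them were above 0, as were 49.1% of all genes. The most alike were *Cenpf* (rho 0.51), a kinetochore protein, *Cenpa* (0.47), the centromeric histone H3, *Top2a* (0.45) and *Tyms* (0.39), all 4 among the genes with under 50% whole values. Genes with at least 50% whole values included *Mcm7* (0.36), *Rrm1* (0.26), *Plk1* (0.09), *Pcna*, the sliding clamp (0.08), *Mcm3* (-0.07), *Mcm6* (-0.21) and *Mcm2* (-0.24). The median was 0.42 for the 6 members with under 50% whole values and 0.08 for the other 11, and over all genes compared it was 0.14 and -0.05 for the same kinds. *Birc5*, survivin, was of the former kind at -0.24. Without the library with the fewest reads these medians were 0.43 and 0.07. In that setting *Mcm7* and *Rrm1* fell to 0.26 and 0.09, while *Plk1*, *Pcna* and *Tyms* rose to 0.25, 0.26 and 0.48.

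**Figure D4:**
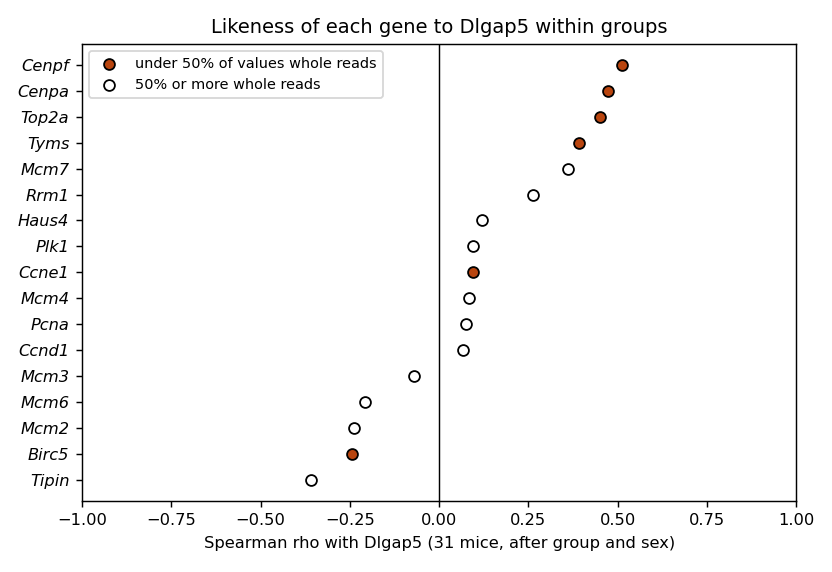
Spearman's rho with *Dlgap5* for the 17 members compared, over 31 mice after group and sex, filled where under 50% of values were whole reads and open otherwise. The 4 highest points, from 0.39 to 0.51, are filled, and the lowest, *Tipin*, is open at -0.36.

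Among the genes most like *Dlgap5* were *Sub1* (rho 0.83), a transcription coactivator, the predicted gene *Gm10160* (0.80), *Otud7b* (0.79), a deubiquitinase, and the predicted gene *Gm3755* (0.79). *Gm10160*, *Otud7b* and *Gm3755* had 13.8%, 3.23% and 0% whole values, and *Sub1* had 100%. Of the 100 most alike, 71 had under 50% whole values, as did 28.4% of all genes compared. What places genes of this kind near *Dlgap5* was not tested.

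In the 11 DPBS mice, which the listing did not use, 7 members could be correlated with *Dlgap5*. Unlike in the likeness above, sex was not taken out, and its part in these correlations was not tested. *Tyms* had Pearson's r = 0.76 (permutation p = 0.00428, adjusted p = 0.0669 over 8404 genes) and Spearman's rho = 0.82 (permutation p = 0.0033, adjusted p = 0.119), so it missed the threshold after adjustment. It was the 1 member of 7 with an unadjusted Pearson p under 0.05, which 2216 of the 8404 genes also had, and 373 genes passed adjustment by Pearson and 0 by Spearman (1502 unadjusted). Without replicates 5 and 6, the 2 mice farthest from the median of *Dlgap5*, r was 0.72. For *Mcm7* r went from 0.61 (rho 0.25) to -0.28 and for *Cenpf* from 0.59 (rho 0.29) to -0.17, so that these relations rested on those mice. *Top2a* went from 0.47 to 0.02. *Ccnd1* had r = -0.14, *Pcna* 0.30 and *Birc5* 0.13, with adjusted p-values of 0.818, 0.578 and 0.833.

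Between the groups at 20 mg/kg 1 member passed the test. Of the 35 genes, 14 passed the filter on low values in *Upf3b*-GalNAc-ASO against Control-GalNAc-ASO, and 1 was called, *Ccnd1*, where 236 of 9376 genes were called overall (2.52%). Their median log2 fold change was -0.05 against -0.12 over all genes tested, with 6 higher and 8 lower. A gene can pass the filter through 1 group alone, so these directions are not independent of it. *Rrm1* and *Tipin*, for example, passed only through the control group, where their medians were higher. None of the 9 kinases and mitotic cyclins passed the filter. *Cenpf* differed by -0.06 (SE 0.43, interval from -0.95 to 0.83) and *Top2a* by -0.04 (SE 0.43, interval from -0.95 to 0.86). *Birc5* (0.80, SE 0.54) and *Cenpa* (0.87, SE 0.51) had adjusted p-values of 0.444 and 0.369 from limma.

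*Tyms* was 146, 54.4, 39.8, 108 and 86.9 TPM after *Upf3b*-GalNAc-ASO at 20 mg/kg and between 11.8 and 84.6 TPM (median 56.9 TPM) after Control-GalNAc-ASO, with overlap (log2 fold change 0.86, SE 0.39, adjusted p = 0.239 from limma). Of the MCM helicase, *Mcm3* differed by 0.24 (SE 0.84) and *Mcm7* by -0.48 (SE 0.59), while *Mcm2*, *Mcm4*, *Mcm5* and *Mcm6* did not reach the filter. *Pcna* differed by 0.14 (SE 0.72) and *Rrm1*, the large subunit of ribonucleotide reductase, by -0.69 (SE 0.72), and their adjusted p-values were 0.938 and 0.644. *Rrm2*, its small subunit, had a median of 1.38 TPM and was not tested. Intervals of this width leave room for a change of 2-fold in either direction in *Mcm3* (from -1.51 to 1.99) and *Pcna* (from -1.37 to 1.65).

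**Figure D5:**
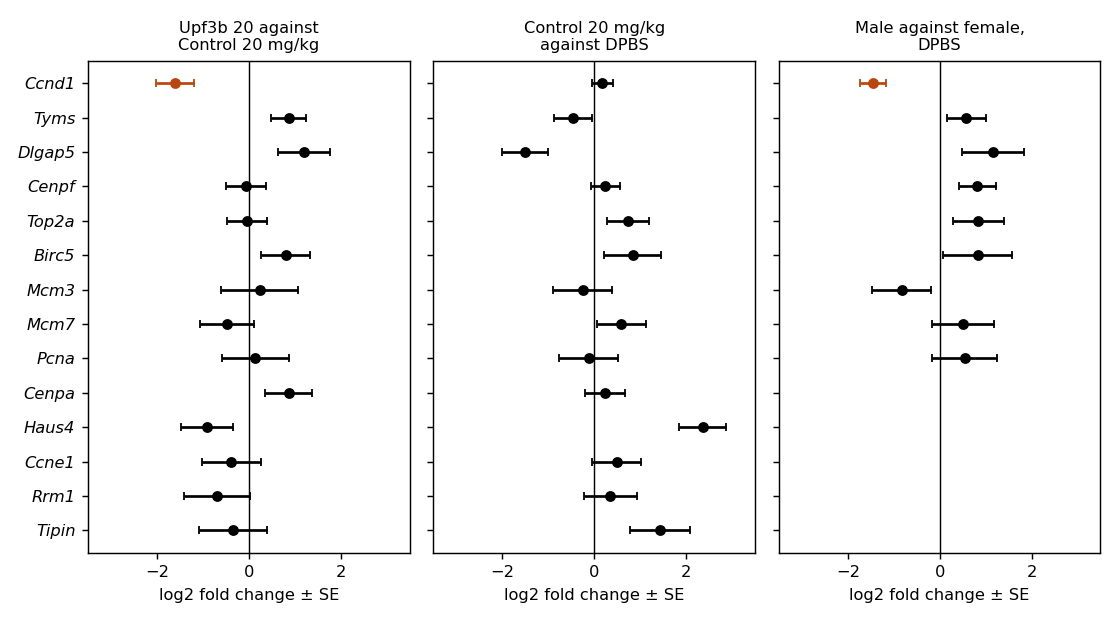
Log2 fold change with its standard error for members that passed the filter, in *Upf3b* 20 mg/kg against Control 20 mg/kg, Control 20 mg/kg against DPBS, and males against females given DPBS; points in orange have an adjusted p under 0.05 from limma, and a missing point did not pass the filter. *Ccnd1* alone is orange, at -1.60 in the left panel and -1.45 in the right.

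Control-GalNAc-ASO at 20 mg/kg was compared with DPBS to see what an ASO without the *Upf3b* sequence did. No gene of 9140 was called (0%, limma), against 905 with an unadjusted p under 0.05, and 0 of 14 members, against 3 with an unadjusted p under 0.05. With a variance fit without trend the count was also 0. *Haus4* was between 0 and 7.45 TPM in DPBS mice (median 0.844 TPM) and between 5.00 and 14.9 TPM after Control-GalNAc-ASO (median 10.0 TPM). Only 2 DPBS males, at 7.45 and 6.59 TPM, lay above the lowest treated mouse. Against DPBS *Haus4* passed the filter only through the treated groups, where it was higher, so its direction was not independent of the filter. The log2 fold change of 2.36 (SE 0.51) had an adjusted p of 0.162. With single mice left out it was called in 1 of 17 fits (adjusted p = 0.0452, without DPBS replicate 1), and the adjusted p reached 0.472 without Control-GalNAc-ASO replicate 1.

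*Haus4* had 15.7, 3.34, 17.4 and 5.22 TPM after Control-GalNAc-ASO at 15 mg/kg, a log2 fold change of 2.15 against DPBS (SE 0.63, a description). After *Upf3b*-GalNAc-ASO at 20 mg/kg it was 2.98, 5.57, 14.3, 0.977 and 7.18 TPM, a difference of 1.35 from DPBS (SE 0.61, adjusted p = 0.377 from limma) and of -0.91 from the control ASO (SE 0.57, adjusted p = 0.402). Of 7 other augmin subunits, 5 were tested against DPBS after Control-GalNAc-ASO at 20 mg/kg and 0 were called, against 1 with an unadjusted p under 0.05.

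*Tipin*, which protects stalled replication forks together with *Timeless*, was at 0 in 9 mice. In DPBS mice it was between 0 and 9.94 TPM (median 0 TPM), and 2 males, at 9.94 and 5.53 TPM, held most of it. After Control-GalNAc-ASO at 20 mg/kg it was between 0 and 8.44 TPM (median 5.62 TPM), a log2 fold change of 1.44 (SE 0.65, adjusted p = 0.481 from limma). At 15 mg/kg it was 3.41, 17.9, 9.92 and 10.4 TPM, which is 2.65 higher on the log2 scale than DPBS (SE 0.65, a description). Against DPBS *Tipin* passed the filter only through the groups given Control-GalNAc-ASO, so its direction was not independent of the filter. The *Upf3b* 20 mg/kg group, at 0.852, 1.73, 7.83, 2.44 and 2.05 TPM, overlapped its controls (log2 fold change -0.35, SE 0.74, adjusted p = 0.838).

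Against DPBS, the *Upf3b* 20 mg/kg mice showed 103 called genes of 9078 (1.13%), and 1 of the 11 members that passed the filter, *Ccnd1*. *Birc5* differed by 1.50 (SE 0.62, adjusted p = 0.302 from limma). These comparisons share their DPBS mice with those of the control ASO. At 10 mg/kg, as a description, *Mcm6* was 8.12, 9.70, 12.7, 5.86 and 4.64 TPM, against 0 to 6.76 TPM in DPBS mice (median 1.06 TPM), a log2 fold change of 2.14 (SE 0.50). After Control-GalNAc-ASO at 15 mg/kg *Mcm6* was 5.80, 1.43, 3.31 and 4.24 TPM, also above DPBS (log2 fold change 1.055, SE 0.44). Between the *Upf3b* 10 mg/kg and Control 15 mg/kg groups it differed by 1.07 (SE 0.54, interval from -0.09 to 2.23). *Mcm6* passed the filter only through the *Upf3b* 10 mg/kg group. At 20 mg/kg of *Upf3b*-GalNAc-ASO it was 2.98, 2.69, 13.8, 0.977 and 1.64 TPM. There it did not reach the filter, with a difference of 0.99 from DPBS (SE 0.52).

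Further genes of mitosis and replication were counted beside the 2.52% of all genes called and the 1751 of 9376 with an unadjusted p under 0.05. Of 50 further mitotic genes, 14 passed the filter in *Upf3b* 20 mg/kg against Control 20 mg/kg, 9 were higher and 5 lower, and 0 were called, against 1 with an unadjusted p under 0.05. Of 36 further replication genes, 19 passed, 9 were higher and 10 lower, and 0 were called, against 3. Their median log2 fold changes were 0.24 and -0.05. Here too a gene can pass the filter through 1 group alone, so the directions are not independent of it. Between the sexes in DPBS mice 127 of all 8998 genes were called (1.41%). Of the 19 tested replication genes 1 was called, *Mcm10*, a replication initiation factor named after its value was seen (log2 fold change 1.91 in males, SE 0.44, adjusted p = 0.0331 from limma).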

How the data were processed

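RNA from the liver of each of 31 mice was sequenced, with a 3′ kit per the labels and a TruSeq protocol per the study's methods. Reads per value were inferred from the smallest step of the TPM, which did not depend on gene length. The authors quantified reads with Salmon 0.7.2 (the submitters' processing notes also name build GRCm38.p4 and bcl2fastq 2.17.1.14) and deposited TPM per gene symbol, with no other normalization stated. The summing of transcripts to genes is not given in the sources used here. Each file held 31198 symbols, and 26 turned into dates were left out. The members and the other gene lists were chosen with earlier results of these data known.

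Differences were tested with limma 3.58.1 in R 4.3.3 (eBayes with trend and robust) on log2(TPM + 1), with sex as covariate and only the groups compared, keeping genes whose median reached 5 TPM in 1 or more groups. Benjamini-Hochberg adjustment ran over all genes tested, and an adjusted p under 0.05 was called. A pseudocount of 1 understates changes of low genes. Comparisons with the groups at 10 or 15 mg/kg carry no p-value, because *Dlgap5* was listed from them. Correlations in DPBS mice used 100000 permutations over both sexes together, two-sided, in Python 3.11.15. Words of 31 bases were compared between GENCODE M21 transcripts. The fit was tested on simulated data.

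All members were named. From other lists, genes past the threshold at 20 mg/kg were named (at most 3 a list), and the 5 genes most like *Dlgap5*, of which 1 is not reported here. Nothing in the labels states that mice with the same replicate number are related, and the average correlation of their residuals was slightly negative. Depth per library is given with the results.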

Additional observations from a re-analysis of the deposited data

Results flagged for a closer look

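In groups of 4 to 10 mice, 18 members were examined in 72 group sets for a mouse far from the others (the gap to the next mouse over the range, on the log2 scale, by Dixon's 95% limits), and 5 sets were flagged. Chance flags about 1 in 20. *Dlgap5* was 34.6 TPM in replicate 3 of the Control-GalNAc-ASO 20 mg/kg group, with between 8.66 and 12.8 TPM in the rest. *Plk1* was at 0 TPM in replicate 3 of the *Upf3b* 10 mg/kg group, the library with the fewest reads, against between 5.67 and 9.20 TPM. *Mcm3* was at 0 TPM in replicate 5 of the *Upf3b* 20 mg/kg group, against between 7.59 and 14.3 TPM. *Mcm4* was 0.650 TPM in replicate 1 of the *Upf3b* 10 mg/kg group, against between 5.41 and 8.82 TPM. *Rrm1* was at 0 TPM in replicate 6 of the Control-GalNAc-ASO 20 mg/kg group, against between 3.56 and 9.89 TPM. No member had a treatment effect at 20 mg/kg that differed between the sexes past the adjusted threshold (limma), and 1 gene of 9376 did, against 284 with an unadjusted p under 0.05.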

How the results depend on the processing

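The call of *Ccnd1* at 20 mg/kg depended on the settings, whereas its direction did not. Against Control-GalNAc-ASO it held in 6 of 11 settings, the reported one included, with log2 fold changes from -1.75 to -1.47 and adjusted p-values from 0.0111 to 0.153, and against DPBS in 6 of 11 (-1.63 to -1.26). Between the sexes it held in 7 of 8, and the adjusted p was 0.0526 with plain eBayes.

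Counts of called genes moved more. For *Upf3b* 20 mg/kg against Control 20 mg/kg, 236 became 67 with no filter on low values, 60 with plain eBayes and 584 at 2-fold and unadjusted p up to 0.01, and leaving out single mice gave 70 (without Control-GalNAc-ASO replicate 3) to 270. For Control 20 mg/kg against DPBS, 0 became 1 with a pseudocount of 5 and 115 at 2-fold, and 0 to 7 with single mice left out. For *Upf3b* 20 mg/kg against DPBS, 103 became 163 with all 31 mice in 1 fit and 304 at 2-fold, and 56 (without *Upf3b* 20 mg/kg replicate 6) to 119. For males against females, 127 became 262 at 2-fold, and 86 to 134. Scaling the libraries by median ratio moved the median of all genes by 0.10 for *Upf3b* against Control at 20 mg/kg and by -0.10 for Control against DPBS.

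With the replicate number as a block, the counts were 45 for *Upf3b* against Control at 20 mg/kg, 0 for Control against DPBS and 42 for *Upf3b* against DPBS, and the adjusted p of *Ccnd1* was 0.0858 and 0.249 in the 2 comparisons of *Upf3b*. The difference of *Dlgap5* between *Upf3b* 20 mg/kg and DPBS turned from -0.34 to 1.05 under the block, not called in either. Residuals of mice with the same number correlated by -0.03, -0.07 and -0.08 on average. These means rest on 5 or 6 pairs each, too few to decide whether the numbers pair the mice. The cause of these moves was not tested. Genes of few reads limit the rest: 24 members had a median under 5 TPM.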
